A study of Mus musculus with 4 samples.

Results

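The genes described are 8 genes known from alveolar type 1 cells: Ager, Aqp5, Hopx, Pdpn, Cav1, Cav2, Rtkn2 and Akap5. They were chosen by name, and each of the 8 has 1 probe set among the 23185 named genes of the array. The series holds 4 Affymetrix arrays of RNA from mouse cells labelled as adult lung, 1 array per population. Day0 is club cells as isolated from the lung, before any culture. The 3w+Dox population is the club cell isolate after 3 weeks in medium with doxycycline, a drug used to switch on inducible transgenes, and the labels call it Club-iPL. Cells given 2 further weeks without the drug are 3w+Dox+2w-Dox, or withdrawn cells for short. The last population is Club-iPS, induced pluripotent stem (iPS) cells. The labels name no strain, transgene, sort, passage or feeder layer, and club cells kept in culture without the drug were not analysed here, so doxycycline and time in culture cannot be told apart.

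Alveolar type 1 cells are the thin, flat cells that cover most of the gas exchange surface of the lung. They are rich in caveolae, small flask-shaped pits of the cell membrane whose coat is built from caveolins and cavins. None of the genes is made by alveolar type 1 cells alone. Caveolins are abundant in fibroblasts and endothelial cells, and podoplanin is also found on lymphatic vessels, mesothelium and activated fibroblasts.

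Signals are log2 values, and a difference of 1 is a 2-fold difference. A difference was counted where it reached 4-fold (2 log2 units) and the brighter of the pair of signals was no lower than 6.67, the median over every probe set and array. With 1 array per population there is no spread between replicates and no p-value, so the order of arrays that lie close together is not established. The array medians lay between 6.60 and 6.74, and precision is limited by having so few arrays. Signal at Day0 was not limited to club cell genes. All 8 measured club cell markers and all 11 measured alveolar type 2 markers read 6.67 or more there. So did 27 of 29 further alveolar type 1 genes, 2 of 20 endothelial genes and 3 of 15 fibroblast genes. The median of all named genes was 6.71 on that array, so a typical gene also passed 6.67. The counts do not show which cells were present. Scgb1a1, the main secreted protein of club cells, read 13.52, 12.62, 13.04 and 4.18 for Day0, 3w+Dox, withdrawn and iPS cells, the order in which every set of 4 values is given. Sftpc, the surfactant protein of alveolar type 2 cells, read 13.49, 13.39, 13.54 and 5.50. Nanog, a core pluripotency factor, read 6.27, 5.83, 5.96 and 12.87.

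The 8 genes did not share a pattern. Ager, Aqp5 and Hopx were brightest at Day0 and dimmest in iPS cells, while Pdpn, Cav1 and Rtkn2 were dimmest at Day0. Akap5 was brighter in both lung cultures than at Day0 and in iPS cells, which were 0.04 apart. Cav2 lay within 2-fold of Day0 in both lung cultures and was dimmest in iPS cells. Against Day0, 3 of the 8 were at least 4-fold apart at 3w+Dox (Cav1 and Akap5 higher, Ager lower), where 7.19% of all named genes were counted, 4.31% as higher and 2.88% as lower. In withdrawn cells 3 of 8 were counted against Day0 (Pdpn, Cav1 and Akap5, all higher), against 5.9% of named genes, 4.05% higher and 1.85% lower. In iPS cells 7 of 8 were counted against Day0 (Pdpn, Cav1 and Rtkn2 higher, and Ager, Aqp5, Hopx and Cav2 lower), against 10.8%, with 4.89% higher and 5.9% lower. With a 2-fold line, 5 of 8 were counted at 3w+Dox and 5 in withdrawn cells against Day0, where 16.2% and 15.6% of named genes were. With an 8-fold line, 1 of 8 was counted at 3w+Dox (3.26% of named genes) and 4 in iPS cells (5.07%). All 8 passed the brightness condition in each comparison except iPS cells with Day0, where Akap5 did not. The median difference of the 8 genes from Day0 was 0.63 at 3w+Dox, 0.98 after withdrawal and -1.24 in iPS cells, beside -0.09, -0.08 and 0.00 over all named genes.

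**Figure D1:**
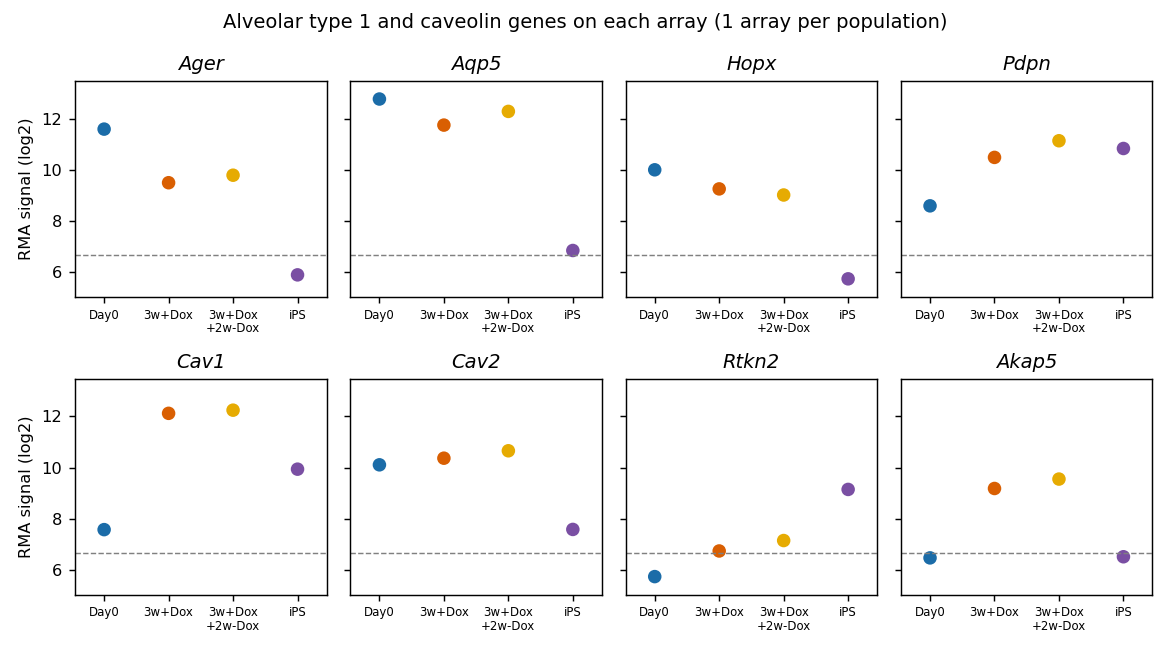
RMA signal (log2) of each of the 8 genes on the Day0, 3w+Dox, 3w+Dox+2w-Dox and iPS arrays, 1 point per array; the dashed line is the median of all values (6.67). Ager, Aqp5 and Hopx are highest at Day0 and lowest in iPS cells, Cav1 and Akap5 are highest in the pair of lung cultures, and Rtkn2 is highest in iPS cells. Signals of different genes come from different probes, so heights are compared within a panel only.

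Promoter sequence is shown for Cav1 and Cav2, which are next to each other in the RefSeq gene order and differed in pattern, for Pdpn, which was higher in culture like Cav1, and for Hopx, which was not. RefSeq start sites on GRCm38.p6 were found for 7 of the 8 genes, and these 4 have a start whose 250-base window before it holds no annotated gene. Each window runs 5′ to 3′ on the gene's own strand. Capitals mark the TATA box letters TATAAA, the GC box letters GGGCGG (bound by Sp1), the letters GGAATG (bound by TEAD factors) and CTCAAG (bound by Nkx2-1), searched on both strands.

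Cav1, chr6:17306085-17306334, + strand: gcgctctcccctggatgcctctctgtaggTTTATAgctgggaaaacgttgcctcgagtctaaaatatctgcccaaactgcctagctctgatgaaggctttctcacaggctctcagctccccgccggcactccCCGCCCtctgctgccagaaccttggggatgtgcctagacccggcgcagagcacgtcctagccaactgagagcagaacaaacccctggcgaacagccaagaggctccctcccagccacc
Cav2, chr6:17280935-17281184, + strand: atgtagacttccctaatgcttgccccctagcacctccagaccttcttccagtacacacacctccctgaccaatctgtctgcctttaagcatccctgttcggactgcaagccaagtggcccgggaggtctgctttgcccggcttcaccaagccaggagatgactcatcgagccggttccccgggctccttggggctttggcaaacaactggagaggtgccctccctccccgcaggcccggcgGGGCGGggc
Pdpn, chr4:143299565-143299814, - strand: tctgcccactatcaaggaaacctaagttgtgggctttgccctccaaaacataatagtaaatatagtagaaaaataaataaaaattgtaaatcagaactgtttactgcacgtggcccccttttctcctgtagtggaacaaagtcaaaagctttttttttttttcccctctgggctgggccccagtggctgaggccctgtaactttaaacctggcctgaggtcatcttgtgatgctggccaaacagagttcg
Hopx, chr5:77115124-77115373, - strand: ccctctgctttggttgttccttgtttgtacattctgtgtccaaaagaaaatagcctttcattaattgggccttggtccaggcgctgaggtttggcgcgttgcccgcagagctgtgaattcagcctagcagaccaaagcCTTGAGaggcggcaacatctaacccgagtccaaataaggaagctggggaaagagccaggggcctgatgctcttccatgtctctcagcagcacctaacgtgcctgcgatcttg

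The windows of Cav1 and Cav2 each hold 1 GC box, 118 and 9 bases before the start for its first base, and 10 CpG pairs, with 59.6% and 62.0% G and C. The Cav1 window also holds the TATA box letters on the opposite strand, 221 bases before the start. The Hopx window holds 1 match of CTCAAG on the opposite strand, 112 bases before the start, and 8 CpG pairs. Cav1 and Hopx each have 2 RefSeq start sites, and the window shown is the one free of annotated genes. The windows not shown, with 12 CpG pairs for Cav1 and 18 for Hopx, hold no match of any of these letters. No match of these letters lies in the Pdpn window, which has 2 CpG pairs and 43.2% G and C. GGAATG was found in none of the 4 windows shown. Of 32851 RefSeq promoter windows of this length, 12.4% hold TATAAA, 32.7% GGGCGG, 12.6% GGAATG and 13.3% CTCAAG, and the median window has 52.4% G and C and 6 CpG pairs. The matches are letters in a window and not measured binding sites.

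Ager, Aqp5 and Hopx, the genes most used to tell alveolar type 1 cells from other epithelium, were lower in every culture than at Day0. Ager (Entrez gene 11596) encodes RAGE, the receptor for advanced glycation end products, which is anchored on the basal membrane of alveolar type 1 cells. It read 11.59, 9.50, 9.79 and 5.91. The 3w+Dox signal was 4.26-fold below Day0, a log2 difference of -2.09 and just past the 4-fold line, and that of withdrawn cells was 3.48-fold below, just inside it. In iPS cells the Ager signal was 51.4-fold below Day0 and under the median of all values, so the size of that fold is not exact. Only 0.354% of named genes were as far or further below Day0 in iPS cells.

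Aqp5 (Entrez gene 11830), a water channel of alveolar type 1 and airway gland cells, read 12.76, 11.75, 12.28 and 6.86. The lung cultures lay within about 2-fold of Day0 (2.02-fold lower at 3w+Dox and 1.40-fold lower in withdrawn cells). In iPS cells Aqp5 was 59.9-fold lower than at Day0, with a signal just above the median of all values (6.67). On that array 0.302% of named genes were as far below Day0. Hopx (Entrez gene 74318), a homeodomain protein that does not bind DNA, read 10.00, 9.26, 9.02 and 5.75. It was 1.67-fold and 1.98-fold below Day0 in the cultures with and after doxycycline and 19.0-fold below in iPS cells. Of 8 club cell markers, 4 were at least 4-fold lower at 3w+Dox and 8 in iPS cells, where 2.88% and 5.9% of named genes were. Of 11 alveolar type 2 markers, 0 were at least 4-fold lower at 3w+Dox and 9 in iPS cells. The part of cell composition in the differences of Ager, Aqp5 and Hopx was not tested, and in RNA of whole populations fewer cells of a type and less RNA per cell cannot be told apart.

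**Figure D2:**
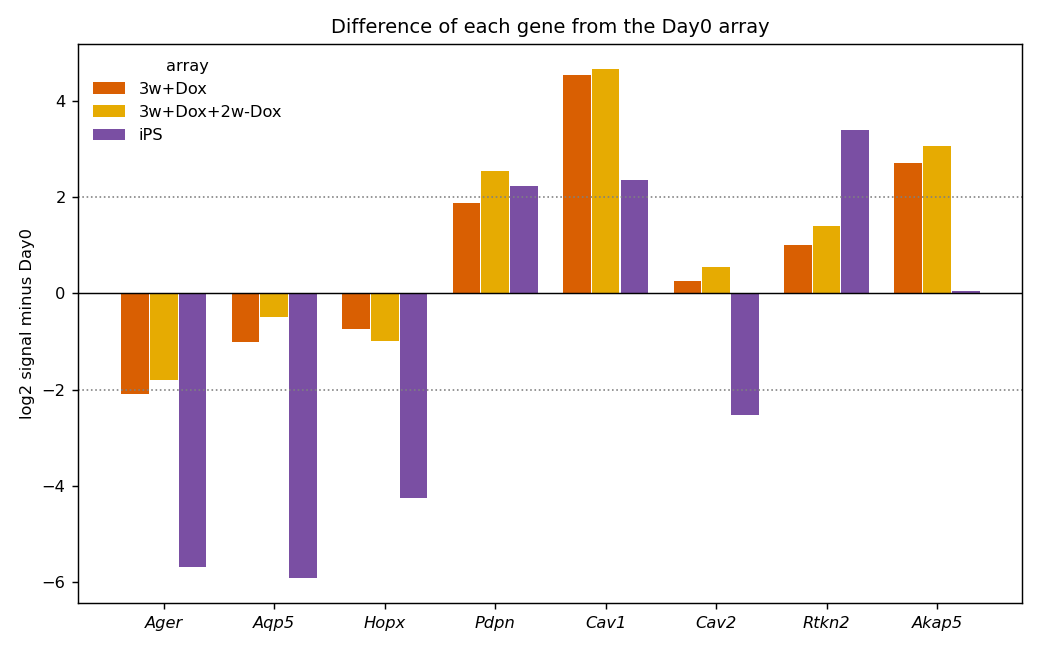
Difference of each gene's log2 signal from the Day0 array, as bars for the 3w+Dox, 3w+Dox+2w-Dox and iPS arrays; dotted lines mark 4-fold (2 log2 units) in each direction. Cav1 stands 4.53 and 4.66 above Day0 in the lung cultures, and Ager, Aqp5 and Hopx stand 5.68, 5.91 and 4.25 below it in iPS cells.

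The caveolins differed from each other. Cav1 (Entrez gene 12389) encodes caveolin-1, the protein without which most cells form no caveolae. It read 7.58, 12.11, 12.24 and 9.94. Every culture was above Day0, by 23.2-fold, 25.2-fold and 5.12-fold. At 3w+Dox 0.746% of named genes were as far or further above Day0. Cav2 (Entrez gene 12390) encodes caveolin-2, which joins caveolin-1 in mixed oligomers. It read 10.11, 10.37, 10.65 and 7.59, which is 1.20-fold and 1.46-fold above Day0 in the lung cultures and 5.73-fold below it in iPS cells. Against 3w+Dox, both caveolins were lower in iPS cells, Cav1 by 4.52-fold and Cav2 by 6.86-fold. The difference of Cav1 between 3w+Dox and Day0 exceeded that of Cav2 by 4.28 log2 units, and between iPS cells and Day0 by 4.88, in which Cav1 was higher and Cav2 lower.

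The coding genes on either side of the pair had patterns of their own. Tes, which encodes the focal adhesion protein testin and lies next to Cav2, read 8.94, 10.17, 9.94 and 8.70. Met, the receptor of hepatocyte growth factor, lies next to Cav1 and read 11.04, 9.91, 8.84 and 7.30, so it was lower than Day0 on each of the other arrays while Cav1 was higher.

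Genes of the caveola coat and neck were likewise split. Of 11 measured genes, 2 passed the 4-fold line upward at 3w+Dox against Day0 (4.31% of all named genes did) and 0 downward, with a median of 0.37, beside -0.09 over all named genes. The pair was Cavin3, which binds caveolin and protein kinase C delta, and Ehd2, an ATPase that sits at the caveola neck and holds it at the membrane. Cavin3 read 7.46, 11.80, 11.68 and 8.51, and Ehd2 read 7.68, 11.29, 11.30 and 8.45. Both were higher in the lung cultures than at Day0 and in iPS cells. Cavin1, which is needed for caveolae in all tissues, read 10.01, 11.11, 11.33 and 9.26, a difference of 1.09 at 3w+Dox. Cavin2, which shapes the caveola membrane, read 10.55, 9.48, 9.86 and 7.57, with the highest signal at Day0 and the lowest in iPS cells. The muscle members Cav3 and Cavin4 were dim, with Cav3 between 5.19 and 5.73 and Cavin4 between 5.69 and 7.09. Pacsin2, a membrane-bending protein of caveolae, lay between 10.37 and 10.75. In iPS cells 1 of the 11 genes was at least 4-fold below Day0, Cavin2, and 0 were above, where 5.9% and 4.89% of named genes were. The flotillins Flot1 and Flot2, which build other membrane microdomains, were within 2-fold of Day0 in both lung cultures.

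**Figure D3:**
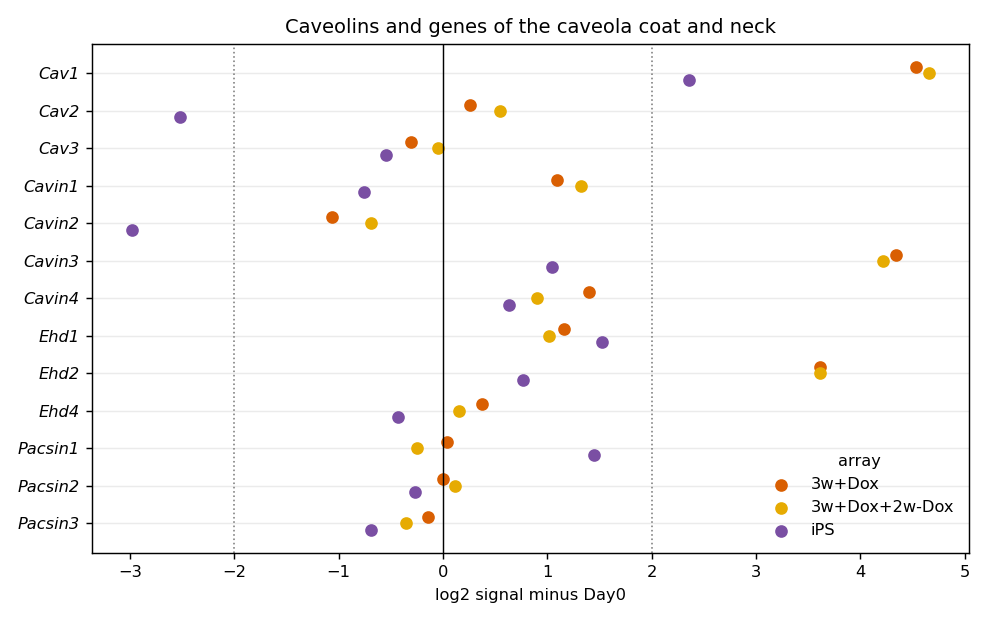
Difference of log2 signal from the Day0 array for Cav1, Cav2 and the 11 genes of the caveola coat and neck, 1 point for each of the 3w+Dox, 3w+Dox+2w-Dox and iPS arrays; dotted lines mark 4-fold in each direction. Cav1, Cavin3 and Ehd2 lie past the upper line in both lung cultures, and Cav2 and Cavin2 lie past the lower line in iPS cells.

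Pdpn (Entrez gene 14726) encodes podoplanin, a membrane mucin that binds ezrin and moesin and was first used to mark alveolar type 1 cells. Its signals were 8.60, 10.49, 11.14 and 10.83. Day0 was the lowest, and the other arrays lay within 2-fold of each other. The 3w+Dox signal was 3.70-fold above Day0, just under the line, while withdrawn cells were 5.81-fold and iPS cells 4.71-fold above. Of 7 listed partners of podoplanin, 0 were at least 4-fold apart at 3w+Dox, where 7.19% of named genes were. Msn, which encodes moesin, read 11.42, 12.64, 12.56 and 11.14, and Ezr, which encodes ezrin, stayed between 10.72 and 11.84. Clec1b, the platelet receptor of podoplanin, lay under the 25th percentile of all values (5.07) on every array. Cd44, a hyaluronan receptor, read 10.68, 10.62, 10.37 and 7.57.

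Akap5 (Entrez gene 238276) encodes an A-kinase anchoring protein, a scaffold that holds protein kinase A, protein kinase C and calcineurin at the membrane. It read 6.48, 9.18, 9.55 and 6.52, so the lung cultures were high and Day0 and iPS cells low and under the median of all values. The lung cultures were 6.52-fold and 8.41-fold above Day0, folds that are not exact because the Day0 signal lay under that median. For iPS cells the difference from Day0 was 0.04, and its sign turned with a second quantile normalization (-0.01). Among 12 other A-kinase anchoring proteins, 1 was higher and 1 lower by 4-fold or more at 3w+Dox, where 4.31% and 2.88% of named genes were. Their median was -0.21, beside -0.09 over all named genes. Akap12, also called gravin, read 5.89, 9.78, 9.67 and 12.18, and unlike Akap5 it was highest in iPS cells. Akap14, a protein of motile cilia, read 8.68, 4.99, 6.20 and 5.49. None of 11 measured partners of Akap5 was at least 4-fold apart at 3w+Dox, where 7.19% of named genes were. Cacna1c, a calcium channel subunit, came closest at 7.29, 8.98, 9.18 and 6.80.

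Rtkn2 (Entrez gene 170799), a rhotekin family protein, read 5.75, 6.75, 7.15 and 9.15. It was the sole gene of the 8 with its highest signal in iPS cells, 10.5-fold above Day0 and 5.28-fold above 3w+Dox. The Day0 signal lay under the median of all values, so the first of these folds is not exact. Against withdrawn cells the iPS signal was 3.98-fold higher (1.99 log2 units), just under the 4-fold line. The difference passed that line after a second quantile normalization (2.04) and did not after centring each array (1.91). Rtkn, the other rhotekin, read 8.72, 7.41, 8.03 and 7.44, with its highest signal at Day0.

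Fibroblast genes were higher than at Day0 on both lung culture arrays, as Cav1, Pdpn and Akap5 were. On the iPS array Akap5 was 0.04 from Day0, while most fibroblast genes, Pdpn and Cav1 were at least 4-fold above it. All 15 measured fibroblast genes exceeded Day0 at least 4-fold at 3w+Dox and in withdrawn cells, where 4.31% and 4.05% of named genes did. In iPS cells 10 of 15 did, beside 4.89% of named genes. The mean log2 signal of the 15 genes was 6.01 at Day0, 11.03, 11.11 and 8.81. Col1a1, a chain of type I collagen, read 6.73, 12.84, 12.53 and 9.76. Of 20 endothelial genes, 3 were at least 4-fold higher at 3w+Dox (Eng, Flt1 and Calcrl) and 1 lower (Kdr), where 4.31% and 2.88% of named genes were. The same shares stand beside the lymphatic, mesothelial and basal counts below. The endothelial list had a mean of 6.14, 6.53, 6.52 and 6.67. The endothelial adhesion genes Pecam1 and Cdh5 were under the median of all values at Day0 and in both lung cultures, with Pecam1 at 5.50, 5.56, 5.53 and 9.22 and Cdh5 at 6.33, 5.88, 5.83 and 6.80. Of 4 measured lymphatic genes, 0 were at least 4-fold apart at 3w+Dox, and Prox1, the lymphatic lineage factor, lay between 4.76 and 5.96. Among 8 mesothelial genes, 2 were at least 4-fold higher at 3w+Dox, Msln (8.46, 11.67, 9.30 and 8.43) and Upk1b, a uroplakin (8.76, 11.86, 8.20 and 5.67), while Wt1, a mesothelial factor, lay between 6.60 and 7.16. Of 8 basal cell markers 2 were counted as higher at 3w+Dox, Aqp3 and Snai2, while Krt5 and Trp63 differed by under 2-fold between 3w+Dox and Day0. The part of fibroblast RNA in the signals of Cav1, Pdpn, Akap5, Cavin3 and Ehd2 was not tested.

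**Figure D4:**
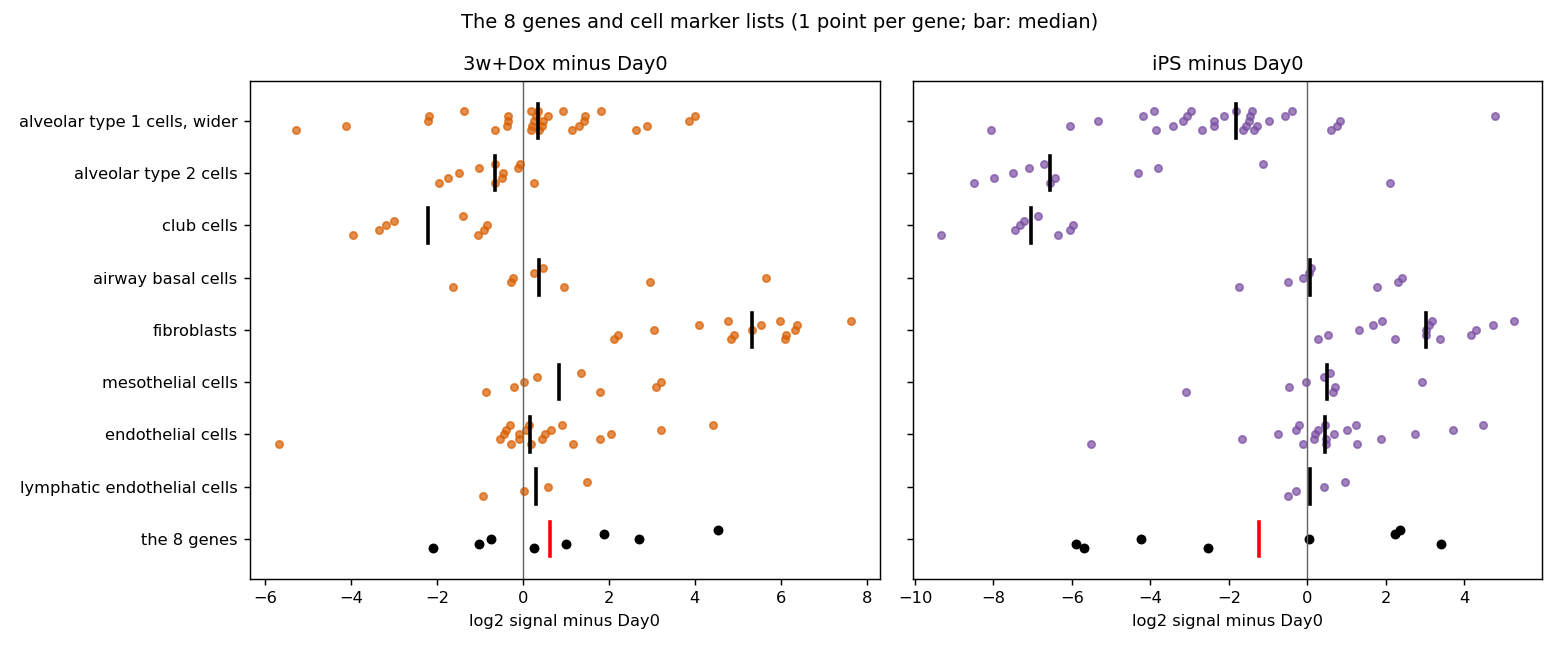
Difference of log2 signal from Day0 for the 8 genes and for 8 lists of cell markers, on the 3w+Dox array (left) and the iPS array (right); each point is a gene and each bar the median of its row. The 8 genes spread from -2.09 to 4.53 at 3w+Dox and from -5.91 to 3.40 in iPS cells, and the fibroblast list has medians of 5.34 and 3.03.

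Between withdrawn and 3w+Dox cells 0 of 8 were at least 4-fold apart (0.772% of named genes were) and 0 of 8 at least 2-fold apart (3.34%), so the counts of the 8 genes are near those of all genes. The differences ran from -0.24 for Hopx to 0.65 for Pdpn, with 7 of 8 genes higher in withdrawn cells and a median of 0.33, beside 0.03 over all named genes. Aqp5 was 0.53 higher, so its log2 difference from Day0 was 52.5% smaller than at 3w+Dox, and Ager was 0.29 higher, 14.0% smaller. With a second quantile normalization the Aqp5 differences from Day0 were -0.91 at 3w+Dox and -0.35 in withdrawn cells, so the share depends on the scaling. The other 6 genes lay further from Day0 in withdrawn cells than at 3w+Dox, by 0.12 log2 units for Cav1, 0.24 for Hopx, 0.29 for Cav2, 0.37 for Akap5, 0.41 for Rtkn2 and 0.65 for Pdpn. These 3 comparisons share arrays, so the values are not independent of each other.

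iPS cells differed from the lung cultures more than these did from each other. Against 3w+Dox, 7 of 8 genes were counted (8.73% of named genes, 3.57% higher and 5.16% lower, and 3.27% with an 8-fold line, where 3 of 8 were counted), with Rtkn2 higher and Ager, Aqp5, Hopx, Cav1, Cav2 and Akap5 lower. Against withdrawn cells, 6 of 8 were counted (8.88%, 3.83% higher and 5.05% lower), the same ones without Rtkn2. Pdpn was within 2-fold of both cultures. The folds below withdrawn cells were 42.9 for Aqp5, 14.8 for Ager, 9.64 for Hopx, 8.38 for Cav2, 8.16 for Akap5 and 4.93 for Cav1.

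Other genes used to mark alveolar type 1 cells were also split at 3w+Dox. Of 29 measured genes, 4 lay above Day0 and 4 below it by 4-fold or more, where 4.31% and 2.88% of named genes did. Their median difference was 0.35, beside -0.09 over all named genes. The furthest apart were Sec14l3, a lipid transfer protein (13.33, 8.06, 10.83 and 5.27), Scnn1g, a subunit of the epithelial sodium channel (12.25, 8.13, 9.52 and 6.21), Ndnf, a secreted protein (7.43, 11.44, 10.19 and 5.96), and Igfbp2, an insulin-like growth factor binding protein (6.70, 10.57, 10.23 and 11.49). In iPS cells 14 of 29 were at least 4-fold below Day0 and 1 above, Igfbp2, where 5.9% and 4.89% of all named genes were. The median of the 29 genes there was -1.81. Clic5, a chloride channel protein of alveolar type 1 cells, read 11.79, 10.43, 9.55 and 6.44, the same order as Hopx.

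Several regulators of the alveolar type 1 state differed as well. Nkx2-1, a homeobox factor that specifies lung epithelium, read 11.17, 9.93, 10.07 and 5.94, and Foxa1, a forkhead factor of endoderm, read 11.63, 10.25, 9.83 and 6.10. Both were highest at Day0 and lowest in iPS cells, as were Ager, Aqp5 and Hopx. The YAP and TAZ coactivators act through TEAD factors and are needed for alveolar type 1 cells. Yap1 stayed between 10.11 and 10.87, and Wwtr1, which encodes TAZ, between 9.42 and 10.67. Tead2 read 6.42, 8.59, 8.48 and 10.17, and Klf4 read 8.60, 10.72, 9.44 and 10.67. These 2 of the 12 regulators were at least 4-fold above Day0 at 3w+Dox and 0 were below, where 4.31% and 2.88% of named genes were. On the iPS array 2 of the 12 were above and 4 below, where 4.89% and 5.9% of named genes were. Of 8 target genes of YAP and TAZ, 3 were at least 4-fold higher at 3w+Dox and 0 lower, beside 4.31% and 2.88% of named genes. Their median was 1.35, beside -0.09 over all named genes. The 3 target genes were Axl, a receptor tyrosine kinase (7.03, 11.13, 11.38 and 9.39), Ccn2, a matricellular protein (8.86, 12.89, 12.76 and 11.02), and Ankrd1 (6.31, 9.50, 9.37 and 7.40). Fibroblasts also make these 3 genes, and fibroblast genes were higher by a median of 5.34 at 3w+Dox. The part of fibroblast RNA in the signals of Axl, Ccn2 and Ankrd1 was not tested.

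The other water channels showed a mix of patterns. Of 11 other measured aquaporin genes, 2 were at least 4-fold higher at 3w+Dox and 0 lower, where 4.31% and 2.88% of named genes were. Aqp1, a channel of microvessels and fibroblasts, read 6.89, 9.12, 9.34 and 7.05, and Aqp3, a channel of basal and squamous epithelium, read 6.84, 9.78, 6.19 and 9.16. Aqp4, found in airway epithelium, read 10.40, 11.49, 11.48 and 5.91. Aqp2 and Aqp6, the coding neighbours of Aqp5, lay between 6.25 and 6.93 and between 4.72 and 5.58. Ligands of RAGE were measured for part of the list. S100a4 read 6.74, 10.53, 10.75 and 8.10, S100a1 read 12.71, 11.85, 12.21 and 9.81, and S100a8, S100a9 and S100b stayed at or below 5.73 on every array. Diaph1, the formin that binds the tail of RAGE, read 10.09, 9.76, 8.58 and 9.69.

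The genes of most similar pattern were found for each of the 8 by the distance between profiles over the 4 arrays, each centred on its mean, among 13134 named genes. The measure rests on few points, since there are 4 arrays. For Cav1 they were Dkk3 (distance 0.15 log2 units), a secreted protein, and Prrx2 (0.16), a mesenchymal homeobox gene. Akap5 was closest to Nxpe5 (0.12) and Tbx5 (0.13), a T-box factor of lung mesenchyme, and Cav2 to Adamts5 (0.08), an aggrecanase, and Arsb (0.15), a lysosomal sulfatase. Ager was closest to Clic3 (0.26), a chloride channel protein, and Cd200 (0.27), an immunoglobulin family membrane protein, Aqp5 to the mucosal chemokine Cxcl17 (0.33) and the club cell P450 Cyp2f2 (0.36), and Hopx to Sp100 (0.22), a nuclear body protein, and Gfra1 (0.24), a GDNF receptor. Pdpn was closest to St6galnac6 (0.11), a sialyltransferase, and Slc40a1 (0.19), the iron exporter ferroportin, and Rtkn2 to Fsd1 (0.19) and Cks1b (0.20), a cell cycle kinase subunit.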

How the data were processed

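RNA of 4 populations was measured on 1 Affymetrix array each, and groups were taken from the sample titles. The authors deposited log2 signals made with RMA (background correction, quantile normalization, median polish), with the affy package and R 3.0.2 named per the submitters' processing notes. Their range, 1.70 to 13.85, also fits log2 values. The genome build is not given in the sources used here. Of 25206 probe sets, 23185 have 1 gene symbol in the platform annotation and 2021 were unnamed and left out. Values were used as deposited. Differences of log2 signals were computed for 6 pairs of arrays over all named genes with Python 3.11.15, numpy 2.4.6 and pandas 2.3.3. No test was possible with 1 array per group.

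The 8 genes and 19 further lists (211 entries, 200 measured) were chosen with earlier results of these data known. Named from each list are members furthest apart in a comparison, fixed markers, and examples chosen after their values were seen. Genes of similar pattern were the nearest 2, without predicted genes, receptor and immunoglobulin families and small RNAs. Promoter windows come from RefSeq.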

Additional observations from a re-analysis of the deposited data

How the results depend on the processing

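The count of genes at least 4-fold apart depended on the fold chosen. With a 2-fold line, 5 of the 8 were counted at 3w+Dox and 5 in withdrawn cells against Day0, in place of 3 each. With an 8-fold line, 1 was counted at 3w+Dox against Day0 (Cav1), 4 in iPS cells against Day0 and 3 in iPS cells against 3w+Dox. No filter on dim probe sets, a filter at the 75th percentile (8.82), renewed quantile normalization, centring each array and raising values below the 25th percentile (5.07) to it moved no count of the 8 by over 1.5 times. Under the last 3 of these settings, each of 48 differences moved by at most 0.13 log2 units, and the sign of Akap5 in iPS cells against Day0 was the sole sign that turned. Centring moved the median of all named genes between withdrawn cells and Day0 from -0.08 to 0.04. Counts of the 19 lists in 6 comparisons, run on the same settings after the data were seen, moved by over 1.5 times in 58 of 114 cases with a 2-fold line, 53 with an 8-fold line, 15 with the stricter filter, 1 with quantile normalization and 3 with centring. No paired analysis was possible because each group has 1 array, and no replicate could be left out for the same reason. Folds against signals under the median of all values are not exact, which holds for Ager and Hopx in iPS cells, Rtkn2 at Day0 and Akap5 at Day0 and in iPS cells.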

Other observations

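Of 12 measured genes of the transitional state that alveolar type 2 cells pass through on the way to type 1 cells, 3 were at least 4-fold above Day0 at 3w+Dox and 0 below, where 4.31% and 2.88% of all named genes were, with a median of 1.12. Tnip3, an inhibitor of NF-kappaB signalling, read 6.02, 10.77, 8.67 and 5.23. Plaur, the urokinase receptor, read 7.79, 10.37, 9.24 and 8.35, and Cdkn1a, which encodes p21, read 11.09, 13.33, 13.37 and 12.60. Fibroblast genes were higher by a median of 5.34 at 3w+Dox, and the part of fibroblast RNA in the signals of the transitional genes was not tested. Krt8 and Krt19, keratins of that state, read 12.13, 12.40, 10.68 and 9.49, and 11.56, 12.26, 10.56 and 7.77. Krt18, another keratin of the list, read 12.29, 11.90, 10.99 and 10.29, so it was not above Day0 at 3w+Dox. Krt8 and Krt19 were lower after withdrawal than with doxycycline, while each of the 8 alveolar type 1 genes differed by under 2-fold. Of the 12 transitional genes, 5 were at least 2-fold lower after withdrawal and 0 higher, where 3.34% of named genes were 2-fold apart. Not all of the list fell, and Fosl1 and Lgals3 were 0.71 and 0.35 higher.

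Receptors of vascular growth factor moved apart from the adhesion genes of endothelium. Kdr, the main receptor of vascular endothelial growth factor, read 11.57, 5.89, 6.12 and 6.04, so it was bright at Day0 alone, where Pecam1 read 5.50 and Cdh5 6.33. Flt1, a second receptor of that factor, read 5.62, 8.84, 9.24 and 6.89, and Eng, a TGF-beta co-receptor, read 6.05, 10.46, 10.65 and 10.54. Vegfa, the growth factor itself and a gene of alveolar type 1 cells, stayed between 9.87 and 11.28.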
